A study of Mus musculus with 2207 samples.

Results

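Sst interneurons of the mouse cortex were taken from single-nucleus RNA-seq data by their marker genes. Of the 1664 nuclei labelled Neuron, among 2207 nuclei in all, 6.55% were members and 1555 were not. The members, 97 with Lhx6 above 0 and 12 with Lhx6 at 0, were chosen by measured values. A nucleus was a member when Gad1, the GABA-synthesising enzyme, had a higher RPKM value than Slc17a7, the glutamate transporter of excitatory cells, and when Sst was above 0 and the largest of Sst, Pvalb, Vip and Lamp5. RPKM is the number of reads of a gene, divided by the gene's length and by the mapped reads of the nucleus. The rule reads these 6 genes, so their values in the members are a description and carry no test.

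Nuclei of C57BL/6 cortex (substrain J in the study's methods) at 14 weeks of age were sorted singly into plates and sequenced by RamDA-seq, a full-length method for total RNA, in 6 pools. In 96-well plates there were a wild type pool (WT, Ehmt1+/+) and a pool labelled Ehmt1Δ/+ (Het), which carries a single intact copy of the gene for the H3K9 methyltransferase GLP. In 384-well plates there were WT and Het pools that also carried the Ehmt1 inducible transgene (iTg) without its driver, CamKII-CreER, and pools of both genotypes with the transgene and the driver (iTg and Het-iTg). The study's legends name the WT and Het groups of this series without the transgene and with CamKII-CreER, so the descriptions differ. The mice of every pool, WT included, received tamoxifen, 100 mg/kg given 2 times from 3 weeks of age, with a week between the doses in the study's methods, and the CamKII promoter is known mainly for its activity in excitatory neurons of the forebrain. Each genotype came from 3 mice, no nucleus is tied to a mouse, and whether the 2 plate formats used the same mice is not given in the sources used here. The pool was therefore the unit, and p-values over pools measure the spread between these pools.

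Somatostatin interneurons are GABAergic cells born in the medial ganglionic eminence under the transcription factors Lhx6, Sox6 and Satb1. Most, the Martinotti cells, send axons to layer 1 and inhibit the distal dendrites of pyramidal neurons, and a rare long-range type is marked by Chodl and Nos1. They release GABA and, from dense-core vesicles, somatostatin, which is cut from its precursor by proprotein convertases and acts on inhibitory G-protein-coupled receptors.

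Sst (mm10 chr16:23889573-23890958, minus strand) is a classic target of CREB, the factor that binds the palindrome TGACGTCA, the cAMP response element. The bases before its RefSeq start, base 23890844, are shown because Sst defines these nuclei. The gene model whose ends are given above, from GENCODE, starts further upstream and takes in the element, as do the GENCODE models of Chgb, Scg2 and Cartpt, so positions here are relative to RefSeq starts. Among the named and listed genes with a promoter in the table, 11 (5.34%) held the element. The 40-base windows show it for the convertase Pcsk1, the granins Chgb and Scg2 and the neuropeptide Cartpt, picked from the 11 for their link to peptide release. The others were Th, Nr2e1, Sstr2, Suv39h2, Flt1 and Col24a1. Sequences are from RefSeq on GRCm38.p6, 5′ to 3′, with the element in capitals.
Sst, chr16:23890845-23891094, minus strand: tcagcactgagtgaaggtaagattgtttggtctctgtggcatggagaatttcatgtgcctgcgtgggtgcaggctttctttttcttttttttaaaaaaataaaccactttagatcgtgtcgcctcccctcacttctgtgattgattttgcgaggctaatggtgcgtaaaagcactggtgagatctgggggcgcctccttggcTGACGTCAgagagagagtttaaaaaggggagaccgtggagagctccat
Pcsk1, chr13:75089763-75089802, plus strand: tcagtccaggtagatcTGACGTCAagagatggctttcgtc
Chgb, chr2:132781554-132781593, plus strand: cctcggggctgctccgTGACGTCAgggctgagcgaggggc
Scg2, chr1:79440071-79440110, minus strand: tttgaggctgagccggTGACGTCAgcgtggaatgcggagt
Cartpt, chr13:99900772-99900811, minus strand: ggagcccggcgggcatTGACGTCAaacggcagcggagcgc
In Sst the element lies 48 to 41 bases before the RefSeq start. It was found in 507 of 27025 promoters of 300 bases (1.88%), 250 before and 50 after the start, and the element reads the same on both strands. Among promoters of genes higher in Sst than in Pvalb nuclei it was found in 19 of 797 (2.38%), beside 380 of 12605 (3.02%) of all tested genes. For genes higher than in Vip or Lamp5 nuclei the count was 11 of 476 (2.31%). These counts describe letters in a window and not binding.

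The members were sequenced to medians of 298156 to 437636 reads per nucleus in the 6 pools, with a range of 116791 to 997010 reads. Sst was above 0 in 15.4% of the excitatory nuclei, at a mean of 1.88 RPKM and a 95th percentile of 12.2 RPKM. It was above 0 in 10.8% of the nuclei labelled Oligodendrocyte, whose median was 69240 reads, beside 355100 for excitatory nuclei. A low Sst value is therefore also met in cells of other kinds. The members held between 95.1% and 98.7% of all Sst signal of the neurons in a pool.

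Of the markers of the class that the rule did not read, Lhx6, Sox6, Satb1, Elfn1 and Grin3a were above 0 in most members. Others were above 0 in few, with Crhr2 in 20.2%, Calb2 and Crh each in 14.7% and Chodl in 3.67%. Lhx6 was above 0 in 97 members (89%), in 86.5% of the 74 Pvalb nuclei and in 6.56% of the 39 Vip and 83 Lamp5 nuclei as 1 group. Sox6 was above 0 in 84.4% of the members and 86.5% of Pvalb nuclei. Satb1 was above 0 in 91.7% and 93.2%, and in 90.2% of excitatory nuclei, so neither gene sets the members apart from Pvalb nuclei. Elfn1, a synaptic adhesion protein that sets facilitating input onto Sst cells, was above 0 in 83.5% of the members, 21.6% of Pvalb nuclei and 47.5% of Vip or Lamp5 nuclei. Grin3a, an NMDA receptor subunit, was above 0 in 93.6%, 64.9% and 68.9%. The GABA genes Gad2 and Slc32a1 were each above 0 in 98.2% of members. Adarb2, a marker of caudally derived Vip and Lamp5 cells, was above 0 in 21.1% of the members and 84.4% of Vip or Lamp5 nuclei.

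The 12 members without Lhx6 differed from the other 97 in further genes. Their median Sst was 26.7 RPKM, beside 526 in the 97 with Lhx6. Adarb2 was above 0 in 9 of the 12 and in 14 of the 97, and Sox6 was above 0 in 3 of the 12 and in 89 of the 97. The name Sst interneuron thus rests on 2 of its 3 given markers in these 12 nuclei. Without them, 6 of the 60 named or listed calls against Pvalb nuclei were lost, those of Otof, Necab1, Penk, Sv2c, Suv39h1 and Mog, and none of the 60 against Vip or Lamp5 nuclei.

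At the edge of the rule, the lowest Sst values inside were 3.27, 3.78, 7.36, 8.81, 9.28 and 13.1 RPKM, and the lowest Sst values stood on 1 read. The member with the closest second marker had 14.36 RPKM of Sst and 14.33 of Vip. Just outside, a nucleus of the iTg pool had 3.28 RPKM of Sst and 3.78 of Pvalb, and a Het nucleus of the 384-well plates with more Slc17a7 than Gad1 had 137.5 RPKM of Sst. Sst was over 10 times the second marker in 92 members, and 33 inhibitory nuclei with Sst above 0 fell outside.

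In the 96-well plates the 23 Sst nuclei of the WT pool were 9.09% of its neurons (exact Clopper-Pearson 95% interval 5.85 to 13.3) and the 17 of the Het pool were 6.42% (3.78 to 10.1). In the 384-well plates the 20 of WT were 7.02% (4.34 to 10.6) and the 18 of Het 5.88% (3.52 to 9.14). The share was lower in the Het pool of both formats, and the intervals of WT and Het overlapped. The 20 of the iTg pool were 7.27% (4.5 to 11) and the 11 of the Het-iTg pool 3.93% (1.98 to 6.92), the lowest share of the 6 pools. Over all pools the share was 6.55% (5.41 to 7.85). Intervals cover counting error only and not the spread between mice, and permuting genotype within the plate formats has too few arrangements for a test. The WT pool of the 96-well plates also had the most Sst outside the class, with 31.9% of its excitatory nuclei above 0, beside 10.8% to 16.5% in the other 5 pools. With at least 10 RPKM of Sst required, its share was 7.91% and that of Het in the same plates 6.42%.

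The sample titles carry codes, 4 in each pool of the 96-well plates, and 3 of them occur in both pools with most wells in common, so a code does not name a single plate. Under the 3 shared codes WT had 7.94%, 9.84% and 10.8% of neurons (5, 6 and 7 nuclei) and Het 5.0%, 5.97% and 9.86% (3, 4 and 7 nuclei). The WT and Het nuclei of a shared code are not a matched pair. The code of WT alone had 7.81% and that of Het alone 4.48%, and the intervals of all 8 overlapped. In the 384-well plates every WT nucleus has 1 code and every Het, iTg and Het-iTg nucleus another, so there a difference from WT and a difference between these codes cannot be told apart. With all inhibitory neurons as the base, the order of WT and Het was the other way around in both formats, but that of iTg and Het-iTg was not. Sst nuclei were 37.1% of the 62 inhibitory nuclei of WT and 39.5% of 43 of Het in 96-well plates, and 27.4% of 73 and 34.6% of 52 in 384-well plates. They were 37.7% of 53 in iTg and 22% of 50 in Het-iTg. Inhibitory nuclei themselves were 24.5% and 16.2% of neurons in the 96-well WT and Het pools, and 25.6% and 17% in the 384-well pools.

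**Figure D1:**
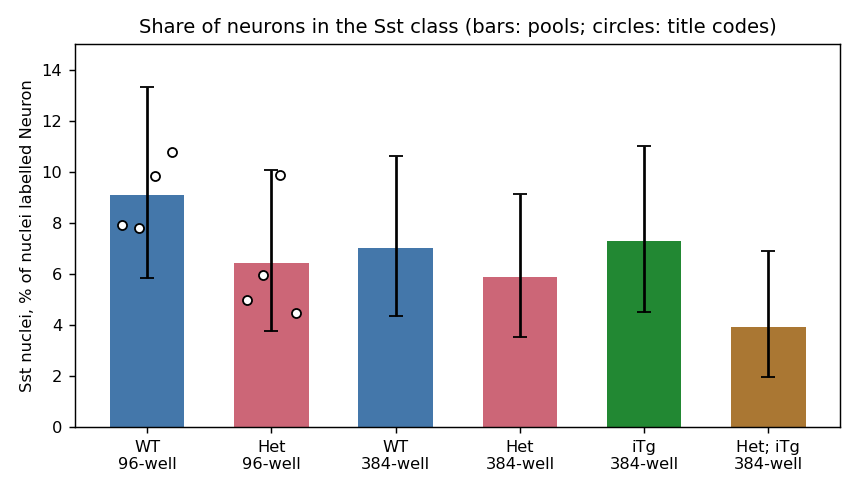
Share of neurons that were Sst nuclei (percent, vertical axis) in each of the 6 pools, with exact 95% intervals as bars and the title codes of the 96-well pools as small circles. The pools run from 3.93% in Het-iTg to 9.09% in WT of the 96-well plates, and the intervals of all pools overlap.

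Sst itself varied over 3 orders of magnitude between members, and the Het pools of both plate formats had lower values than their WT pools. In the 23 WT nuclei of the 96-well plates the lowest, median and highest Sst values were 3.78, 521 and 11330 RPKM. In the 17 Het nuclei they were 13.8, 133.4 and 2269 RPKM. Single nuclei overlapped widely between these 2 pools. In the 384-well plates the values were 3.27, 785 and 6760 RPKM in the 20 WT nuclei and 7.36, 486 and 1998 RPKM in the 18 Het nuclei. In the iTg pool they were 13.1, 661 and 5791 RPKM, and in the Het-iTg pool 18.2, 964 and 4294 RPKM. The Het-iTg pool had the highest median, over 11 nuclei, but its mean of 1072 RPKM was below those of WT (1245) and iTg (1378) in the same plates. Over all neurons of the 384-well plates the mean Sst value was 88.6 RPKM in WT, 34.4 in Het, 101.5 in iTg and 44.2 in Het-iTg.

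Nuclei with at least 1000 RPKM of Sst were 8 of 23 in WT and 1 of 17 in Het of the 96-well plates, and 9 of 20 and 3 of 18 in the 384-well plates. They were 9 of 20 in iTg and 5 of 11 in Het-iTg. The mean Sst value of the pools depended on single nuclei. It was 1189 RPKM in WT and 287.4 in Het of the 96-well plates, and 728 and 163.6 without the highest nucleus of each. In the 384-well plates it was 1245 and 559, and 955 and 475 without the highest nucleus. The order was the same with and without these nuclei, in both formats. Because Sst chose the members, its level is given without a test, and the median number of reads behind it ran from 27 in Het of the 96-well plates to 242.5 in iTg.

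**Figure D2:**
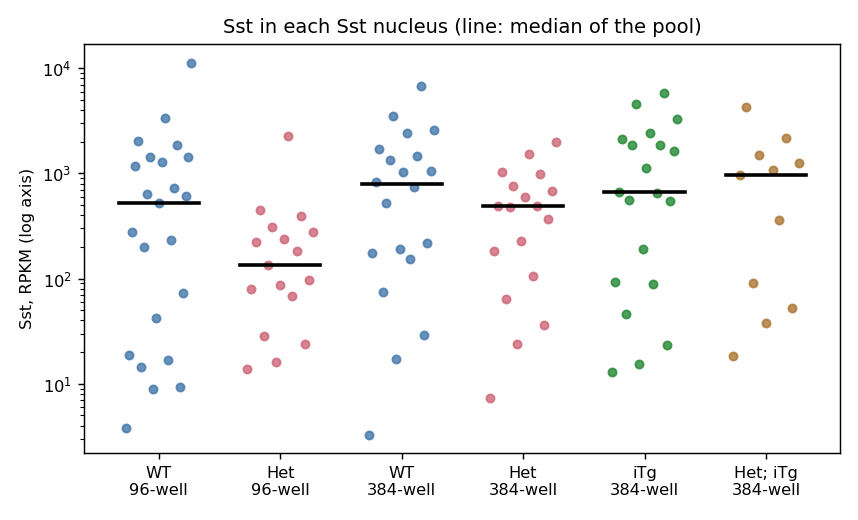
Sst value of each member (RPKM, log axis) in the 6 pools, 1 point a nucleus, with the pool median as a line. The Het medians, 133.4 and 486 RPKM, sit below the WT medians, 521 and 785 RPKM, while the points of all pools overlap.

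Members also differed in the genes that split Sst cells into types. Npy, a neuropeptide often released with somatostatin, was above 0 in 60 members and at least 100 RPKM in 25, with a highest value of 2338 RPKM. Calb1, the calcium-binding protein of many Martinotti cells, was above 0 in 69, Nos1 in 50, Moxd1 in 48, Pdyn, the dynorphin precursor, in 43 and Cort, the somatostatin-like peptide cortistatin, in 35. Calb2, the marker of a layer 2/3 Martinotti type, was above 0 in 16 members. Th was above 0 in 10 and Crh in 16.

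Chodl was above 0 in 4 members, and all 4 also had Nos1 and Npy. These are the 3 genes that mark long-range sleep-active Sst cells. The 4 nuclei were spread over 4 pools, 1 each in iTg, WT and Het of the 96-well plates and Het of the 384-well plates. Their Npy values were 2338, 1892, 250 and 840.3 RPKM and their Nos1 values 472.6, 258.8, 7.7 and 445.2 RPKM. The WT nucleus among them was also the nucleus with the highest Sst value, 11330 RPKM. None of the 16 Calb2 members had Chodl.

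Crhbp, which binds corticotropin-releasing hormone, was above 0 in 55 members. Npy was above 0 in 44 of these 55 (80%) and in 29.6% of the other 54. Of the 35 members with Cort, 26 had Npy (74.3%), beside 45.9% of the other 74. These pairs are descriptions over nuclei of 6 pools. The median Sst value was 740 RPKM in members with Pdyn and 191.5 RPKM in those without it, and it was 656 and 93.8 RPKM for Calb1. Other subtype genes went the other way. With and without the gene, the median was 76.4 and 492.3 RPKM for Th, 91.8 and 549 for Necab1 and 217.9 and 537.6 for Mme.

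The next question was how the RNA of Sst nuclei differs from that of the other interneurons. The mean of each class was taken in each pool, log2(mean RPKM + 0.1) was fitted with limma with the pool as a block, and a gene was called at a Benjamini-Hochberg adjusted p under 0.05. Fold changes on this scale understate the change of low genes. Against Pvalb nuclei, 2468 of 26065 tested genes were called (9.47%), 1428 higher (5.48%) and 1040 lower (3.99%) in Sst nuclei. Of these, 2121 differed in the same direction in all 6 pools. The count fell to between 1236 and 1990 when a pool was left out, with 1236 without WT and 1363 without Het-iTg of the 384-well plates, 1583 without Het of the 96-well plates, and 1617 and 1624 without iTg and Het of the 384-well plates.

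Pvalb nuclei are those of fast-spiking basket cells, of the same origin. The largest rises in Sst nuclei against them included a calcium channel, a laminin, a G-protein regulator, reelin and the dynorphin precursor. Trpc6, a receptor-operated calcium channel (chr9:8544142-8680741), was 32, 29, 28.3, 29.4, 30.2 and 39.8 RPKM in Sst nuclei of WT and Het in 96-well and WT, Het, iTg and Het-iTg in 384-well plates, the order used throughout. In Pvalb nuclei it was between 0.0753 and 2.13 RPKM, so the classes did not overlap. The log2 difference was 5.81 ± 0.49 (SE, n = 6 pools, limma adjusted p = 9.57e-05). Lama4, a laminin chain (chr10:38965515-39110188), was 9.57 to 17.5 RPKM in Sst nuclei and at most 0.755 in Pvalb nuclei, a log2 difference of 6.04 ± 0.52 (adjusted p = 9.64e-05).

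Rgs9, a regulator of G-protein signalling (chr11:109225355-109298129), was 21.1, 45.1, 29.1, 39.7, 38 and 26.1 RPKM in Sst nuclei and 0.310 to 2.39 RPKM in Pvalb nuclei (log2 difference 4.88 ± 0.32, adjusted p = 2.15e-05). Reln, the secreted glycoprotein reelin (chr5:21884454-22344702), was 49.4 to 77 RPKM in Sst nuclei and 0.809 to 4.71 RPKM in Pvalb nuclei (4.75 ± 0.51, adjusted p = 4.66e-04). Pdyn showed the largest difference of the genes named by the rule, 6.50 ± 1.17, although its Sst level ran from 4.75 to 40.1 RPKM between pools. The others on the higher side were Man1a, Shisa6, Unc13c, Npas1 and Otof, with log2 differences of 4.63 to 5.34. Otof was no longer called when the log2 values of nuclei were averaged or when only members with Lhx6 were used, with a highest adjusted p of 0.451.

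The largest falls included aggrecan, a myosin-binding protein and a subunit of cytochrome oxidase. Acan, the core protein aggrecan of the perineuronal net (chr7:79053483-79115099), was 0 to 1.08 RPKM in Sst nuclei and 7.49 to 15.3 RPKM in Pvalb nuclei, without overlap. The log2 difference was -5.10 ± 0.88 (adjusted p = 0.00459). Mybpc1, a myosin-binding protein, was at most 1.12 RPKM in Sst nuclei and 10.01 to 25.1 RPKM in Pvalb nuclei (-6.09 ± 0.74). Cox6a2, a cytochrome oxidase subunit, was at 0 in 4 of the 6 Sst pools and 2.67 to 16.5 RPKM in Pvalb nuclei (-5.30 ± 1.03, adjusted p = 0.00828). Rubcnl, Adamtsl5, Col24a1, Asb2, Adm, Adamts15 and Itga7 were lower by log2 differences of -4.20 to -5.72. Col24a1 lost its call without the WT pool of the 384-well plates (adjusted p = 0.0546).

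Against Vip or Lamp5 nuclei, 1819 of 26065 genes were called (6.98%), 977 higher (3.75%) and 842 lower (3.23%) in Sst nuclei, and 1626 of them had the same direction in all 6 pools. Without a pool the count was 983 to 1371. It was 983 without WT and 1041 without iTg of the 384-well plates, 1156 without Het of the 96-well plates and 1187 without Het-iTg. When log2 values were averaged over nuclei in place of taking the log2 of the pool mean, the split of higher and lower calls moved. The share of higher calls went from 57.9% to 40.7% against Pvalb nuclei and from 53.7% to 75.1% against Vip or Lamp5 nuclei, with the median difference of all genes at -0.08 and 0.22 on the log2 scale, beside 0.04 and 0.01. None of the 60 named or listed calls of either comparison changed direction under any alternative.

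Genes known to separate medially from caudally derived interneurons were among those called. Lhx6 (chr2:36081953-36105408) was 26.6, 39.3, 51.6, 46.1, 56.8 and 64.9 RPKM in Sst nuclei and 0.991 to 10.5 RPKM in Vip or Lamp5 nuclei, without overlap. The log2 difference was 4.10 ± 0.38 (adjusted p = 1.25e-04). Sox6 was 8.23 to 19.7 RPKM and at most 1.38 RPKM (4.95 ± 0.47, adjusted p = 1.58e-04), and its antisense neighbour Sox6os differed by 6.29. Reads were counted without regard to strand, so Sox6 and Sox6os cannot be told apart, and this holds also for Egfr and Egfros and for Prox1 and Prox1os. Satb1 was 15 to 40.7 RPKM in Sst nuclei and 1.06 to 1.97 RPKM in Vip or Lamp5 nuclei (3.77 ± 0.25). Crhbp (chr13:95431371-95444924) was 29.6, 20.3, 10.9, 14.7, 32.6 and 5.21 RPKM, and at most 1.68 RPKM in Vip or Lamp5 nuclei (5.79 ± 0.66, adjusted p = 4.77e-04).

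Lama4 was higher here too, by 6.34 ± 0.52, with at most 0.232 RPKM in Vip or Lamp5 nuclei. Masp1, a protease of the lectin complement pathway, Lypd6b, a modulator of nicotinic receptors, Rxfp3, the relaxin-3 receptor, Lgals1 and Moxd1 were higher by log2 differences of 4.19 to 5.01. The call of Moxd1 was lost without the Het-iTg pool (adjusted p = 0.0537). Myh13 was listed at 0 in the Vip or Lamp5 nuclei of all 6 pools and was 0.174 to 18.9 RPKM in Sst nuclei, so no fold is given.

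Egfr, the epidermal growth factor receptor (chr11:16752203-16918158), was 0 to 0.158 RPKM in Sst nuclei and 11.9 to 36 RPKM in Vip or Lamp5 nuclei, a log2 difference of -7.40 ± 0.39 (adjusted p = 5.08e-06) and the largest fall. Prox1, a transcription factor of caudally derived cells, was 0 to 7.64 RPKM and 14.8 to 29.5 RPKM (-5.55 ± 1.13), and lost its call without WT or Het of the 384-well plates, with adjusted p of at most 0.0635. Adarb2 was lower in every pool, 0.0684 to 14.9 RPKM beside 80.7 to 171.2 RPKM, yet its adjusted p of 0.036 rose above 0.05 without each of the 6 pools in turn, to at most 0.122. Sall1, Hgfac, Cxcl14, Slc12a4 and Pde11a were lower by -4.97 to -5.79. Pde11a lost its call without WT or iTg of the 384-well plates.

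Genes called higher in both comparisons were 15.2% of the higher Pvalb list and 22.2% of the higher Vip or Lamp5 list, and genes called lower in both were 14.8% and 18.3% of the lower lists. Both comparisons use the same Sst means, so these counts are a description.

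**Figure D3:**
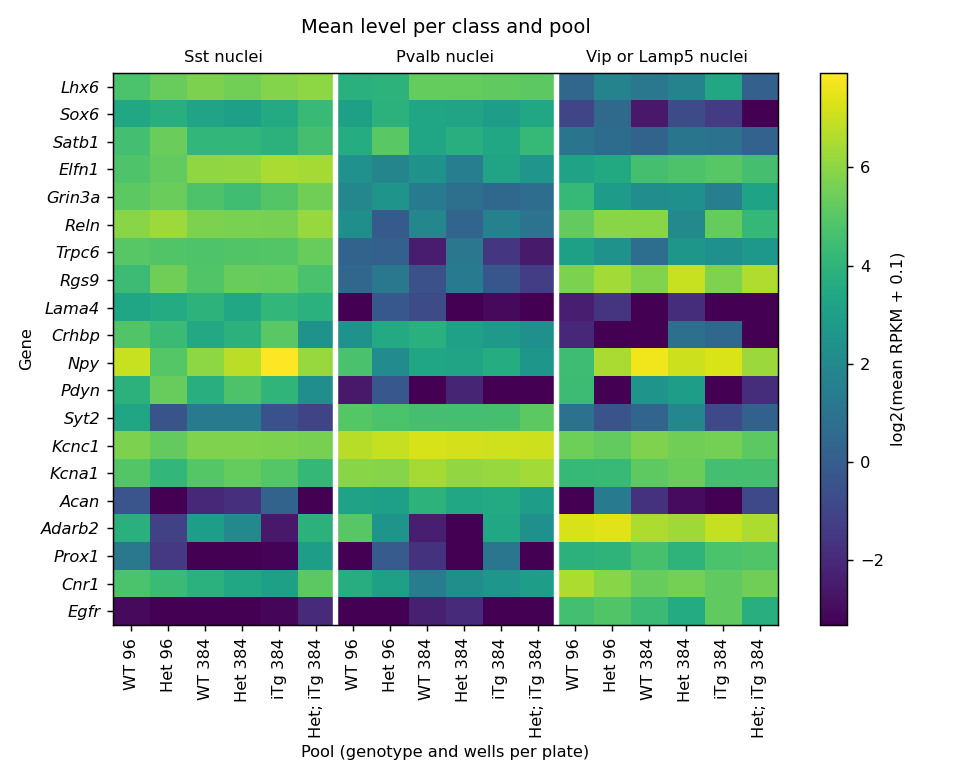
Mean level of 20 named genes on a log2(mean RPKM + 0.1) colour scale, 1 row a gene and 1 column a pool, for Sst, Pvalb and Vip or Lamp5 nuclei. Lama4 and Trpc6 are lighter in all 6 Sst columns than in the Pvalb columns, Lhx6 is dark in the Vip or Lamp5 columns alone, and Egfr is bright there alone.

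Lists of genes by role were then counted, beside the median log2 difference of all tested genes, 0.04 against Pvalb nuclei and 0.01 against Vip or Lamp5 nuclei. Every list count stands beside the shares of all tested genes. These were 5.48% higher and 3.99% lower against Pvalb nuclei, and 3.75% and 3.23% against Vip or Lamp5 nuclei. Of 12 tested Sst subclass markers, 6 were higher than in Pvalb nuclei and none lower, with a median of 2.91, and 5 were higher than in Vip or Lamp5 nuclei, with a median of 1.36. Elfn1 (chr5:139907943-139974722) was 28.7, 37.5, 65.8, 69.8, 91.3 and 85.3 RPKM in Sst nuclei, beside 2.68 to 9.53 in Pvalb and 8.96 to 31.6 in Vip or Lamp5 nuclei. Its log2 differences were 3.56 ± 0.26 and 1.58 ± 0.26 (adjusted p = 3.24e-05 and 0.00375). Grin3a (chr4:49661611-49845744) was 22.4 to 45.4 RPKM in Sst nuclei and higher than in both groups, by 3.74 ± 0.32 and 2.31 ± 0.32. Npy and Calb2 were called against Pvalb nuclei, higher by 3.19 ± 0.54 and 3.00 ± 0.57, and the call of Calb2 was lost when log2 values were averaged over nuclei. Calb1 was 2.82 ± 0.68 higher than in Pvalb nuclei, a call lost without each of 4 pools in turn (adjusted p of at most 0.0868).

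Of 27 tested genes that mark subtypes of Sst cells, 9 were higher than in Pvalb nuclei (33.3%, beside 5.48% of all genes), with a median of 1.55. Against Vip or Lamp5 nuclei 2 were higher and 4 lower (22.2% called, beside 6.98% of all genes), with a median of -0.03. Chrna2, the nicotinic subunit of layer 5 Martinotti cells, Ptgdr and Hpse were listed at 0 in the Pvalb nuclei of all 6 pools. These genes are among the 9 and could only come out higher there. Without them the median against Pvalb nuclei was 1.41. Ptgdr, a prostaglandin D receptor, was 0.286 to 6.07 RPKM in Sst nuclei and at most 0.110 RPKM in Vip or Lamp5 nuclei (3.52 ± 0.39, adjusted p = 4.22e-04). Cbln4, a synapse organiser, was 0.681 to 3.54 RPKM and at most 0.686 RPKM in Pvalb nuclei (3.13 ± 0.53). Necab1, Nr2f2 and Hpse were called against Pvalb nuclei and lost the call without each of 4 pools in turn, Necab1 also with only members with Lhx6.

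Markers of the other interneuron classes were next. Of 9 tested Pvalb markers, 5 were lower than in Pvalb nuclei (55.6%, beside 3.99% of all genes), with a median of -1.42. Syt2, the fast calcium sensor of Pvalb terminals, was 0.391 to 9.55 RPKM in Sst nuclei and 23.6 to 33.5 RPKM in Pvalb nuclei (-4.09 ± 0.50, adjusted p = 8.3e-04). Of 13 tested Vip and Lamp5 markers, 7 were lower than in Vip or Lamp5 nuclei (53.85%, beside 3.23% of all genes), with a median of -2.94. Against Pvalb nuclei 5 were higher (38.5%, beside 5.48% of all genes), with a median of 1.32. These were Npas1, Cnr1, Penk, Sv2c and Calb2. The calls of Penk and Sv2c were lost with only members with Lhx6, and without each of 3 and 2 pools in turn. Those of Penk, Sv2c and Calb2 were lost when log2 values were averaged over nuclei. Cnr1, the cannabinoid receptor, stood between the classes. It was 8.30 to 34 RPKM in Sst nuclei, 1.42 ± 0.26 above Pvalb nuclei and 1.60 ± 0.26 below Vip or Lamp5 nuclei on the log2 scale, and the second call was lost when log2 values were averaged over nuclei (adjusted p = 0.66).

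A list of synapse and receptor genes was drawn up from genes known in Sst cells and shares genes such as Elfn1, Grin3a, Chrna2 and Cbln4 with the Sst lists above. Of 19 tested, 10 were higher than in Pvalb nuclei, beside 5.48% of all genes, with a median of 1.75, and 5 were higher and 1 lower than in Vip or Lamp5 nuclei, with a median of 0.48. Chrna2, at 0 in the Pvalb nuclei of all 6 pools, could only come out higher there. Without it the median against Pvalb nuclei was 1.65. Grm7, a metabotropic glutamate receptor, was 36.1 to 54.2 RPKM in Sst nuclei and 1.75 ± 0.21 above Pvalb nuclei. Oxtr, the oxytocin receptor, was 6.38, 7.85, 8.67, 14, 13.3 and 8.68 RPKM, beside at most 2.46 RPKM in Pvalb nuclei (3.61 ± 0.64, adjusted p = 0.00555). Synpr, a synaptic vesicle protein, was 3.39 ± 0.54 above Pvalb nuclei. Cdh9, a cadherin, was above both groups, by 2.37 ± 0.49 and 2.12 ± 0.49, with calls lost without iTg or Het-iTg in the first and without each pool of the 384-well plates in the second. Npy1r, the neuropeptide Y receptor, was 3.38 ± 0.87 below Vip or Lamp5 nuclei, a call lost without each of 5 pools in turn.

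Ion channel genes were the list with most lower calls against Pvalb nuclei. Of 16 potassium and HCN channel genes tested, 7 were lower and 1 higher, beside 3.99% and 5.48% of all genes, with a median of -0.65. Kcnc1, the Kv3.1 channel of fast spiking, was 52.8, 37.5, 53.8, 54.1, 52.9 and 49 RPKM in Sst nuclei and 106.4 to 151.4 RPKM in Pvalb nuclei, without overlap (-1.42 ± 0.13, adjusted p = 1.29e-04). The log2 difference of Kcna1 was -1.42 ± 0.19. Kcnc2, the Kv3.2 channel, was 38 to 139.3 RPKM in Sst nuclei and not called against Pvalb nuclei, and it was 1.72 ± 0.25 above Vip or Lamp5 nuclei (adjusted p = 0.00194). Kcnmb4, a BK channel subunit, was above both groups, by 2.29 ± 0.44 and 2.62 ± 0.44. The list against Vip or Lamp5 nuclei had 2 higher and 2 lower genes, with a median of -0.01.

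The next list holds the machinery that makes and stores somatostatin. Of 16 tested genes of peptide processing and dense-core vesicles, 4 were higher than in Pvalb nuclei (25%, beside 5.48% of all genes), with a median of 0.01. Against Vip or Lamp5 nuclei 1 was higher and 2 lower (18.75% called, beside 6.98% of all genes), with a median of -0.04. Pcsk2, the convertase of somatostatin-14, was 10.01, 9.11, 5.07, 6.26, 5.04 and 5.21 RPKM in Sst nuclei, 1.06 ± 0.24 above Pvalb nuclei and 1.39 ± 0.24 below Vip or Lamp5 nuclei (adjusted p = 0.0163 and 0.00473), with the first call lost without each of 3 pools in turn. Ptprn2, a vesicle membrane protein, was 34.7 to 47 RPKM and 0.76 ± 0.12 above Pvalb nuclei. Pam and Ptprn were also called against Pvalb nuclei and lost the call without each of 5 pools in turn. Cort was 2.03 ± 0.52 above Vip or Lamp5 nuclei, a call lost without each of 4 pools in turn.

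Of 4 tested somatostatin receptors, Sstr1 was 6.98, 4.65, 9.84, 2.71, 6.70 and 6.55 RPKM in Sst nuclei and above 0 in 55% of members, beside 10.8% of Pvalb and 13.1% of Vip or Lamp5 nuclei. It was 3.56 ± 0.84 and 3.32 ± 0.84 higher, calls that were lost without each of the 384-well pools in turn (adjusted p of at most 0.0759 and 0.136). Sstr4 was 1.51 ± 0.24 below Vip or Lamp5 nuclei (adjusted p = 0.00301). The median of the receptors was -0.07 against Pvalb and -0.81 against Vip or Lamp5 nuclei. Of 6 tested genes of GABA synthesis and transport, Gad2 alone was called, 0.67 ± 0.17 above Pvalb nuclei, with medians of -0.17 and -0.28. The call was lost without each of 4 pools in turn. Gad1, which the rule read, was 30.2 to 50.1 RPKM in Sst nuclei, 56.9 to 90.6 in Pvalb nuclei and 66.6 to 99.7 in Vip or Lamp5 nuclei.

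Of 19 tested transcription factors of interneuron development, Nr2f2, Npas1 and Npas3 were higher than in Pvalb nuclei (15.8%, beside 5.48% of all genes), with a median of 0.23. Against Vip or Lamp5 nuclei, 5 were higher, Lhx6, Sox6 and Satb1 among them, and Nr2f1 and Prox1 were lower (36.8% called, beside 6.98% of all genes), with a median of 0.21. The call of Nr2f1 was lost without each of the 6 pools in turn (adjusted p of at most 0.134). Of 16 cAMP and activity-regulated genes, 1 was called and higher than in Pvalb nuclei (6.25%, beside 9.47% of all genes called). Against Vip or Lamp5 nuclei 3 were lower (18.75%, beside 6.98% of all genes called), and the medians were 0.27 and -0.77. Nr4a1, an immediate early gene, was 4.22 to 27.1 RPKM in Sst nuclei and 12.8 to 77.2 RPKM in Vip or Lamp5 nuclei (-1.57 ± 0.39, adjusted p = 0.0325), a call lost without each of 5 pools in turn. Of 16 genes of H3K9 methylation, Suv39h1 was called against Pvalb nuclei and Kdm4c against Vip or Lamp5 nuclei, with medians of 0.12 and -0.08. Each is 6.25% of the list, below the 9.47% and 6.98% of all genes called. Both calls were lost without each of the 6 pools in turn, the first also with only members with Lhx6.

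**Figure D4:**
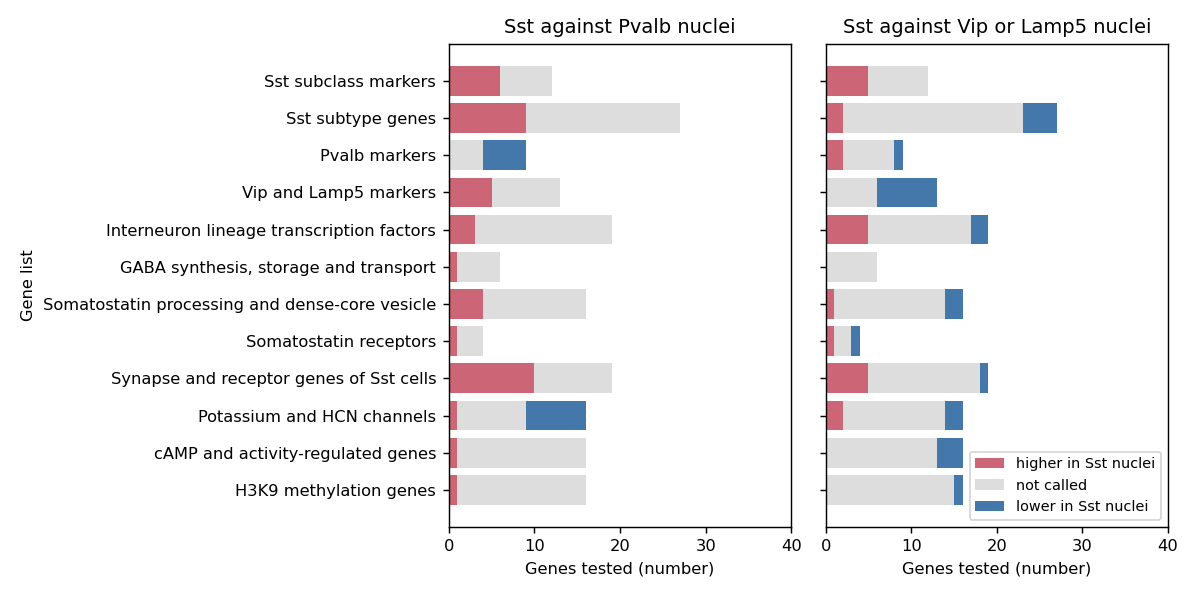
Number of genes tested in each list (horizontal axis) that were called higher, called lower or not called in Sst nuclei, against Pvalb nuclei (left) and against Vip or Lamp5 nuclei (right). The synapse and receptor list has 10 higher of 19 on the left, the channel list 7 lower of 16 on the left, and the Vip and Lamp5 marker list 7 lower of 13 on the right.

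Markers of other cells were counted as well, since a sorted nucleus can carry free RNA. The classes come from the same pools, so these counts do not measure free RNA common to a pool. Of tested markers, none of 8 excitatory, 6 microglial, 2 oligodendrocyte precursor, 5 astrocyte and 2 vascular genes was called against Pvalb nuclei, with medians of 0.29, -0.11, -0.10, 0.20 and -0.08, and 1 of 6 oligodendrocyte genes was (Mog, median 0.26), a call lost without each of 5 pools in turn and with only members with Lhx6. Against Vip or Lamp5 nuclei, Cux2 was higher, Camk2a lower and Slc1a2 lower, with medians of 0.05 for excitatory and -0.24 for astrocyte genes, and no microglial, oligodendrocyte, precursor or vascular gene was called (medians 0.24, -0.35, -2.13 and -0.38). The calls of Cux2 and Slc1a2 were lost without each of 5 and 4 pools in turn (adjusted p of at most 0.0916 and 0.0971). Slc17a7 was above 0 in 67 members at pool means of 0.396 to 4.04 RPKM. The microglial Tmem119 was at 0 in every member, as were the vascular Cldn5 and, outside the 96-well WT pool, the astrocyte marker Aqp4.

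The question of the study itself is what loss of an Ehmt1 copy does. In Sst nuclei, 24108 genes were tested between the WT and Het pools of both formats, and 0 were called (0%) by limma, with 1497 genes at an unadjusted p under 0.05. This fit has 2 pools on each side, with the plate format as a block, which leaves 1 residual degree of freedom, so 0 calls are no measure of likeness. Of the tested genes, 5018 (20.8%) were higher and 7638 (31.7%) lower in the Het pool of both formats, with a median log2 difference of -0.08. The Het pools held fewer members, 17 beside 23 and 18 beside 20. Their median depth was also lower, 354875 beside 375786 and 301879 beside 347941 reads. A gene could pass the filter through a single genotype. The part of these differences in the counts was not tested. In the 384-well plates the title codes differ between the 2 pools as given above.

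Ehmt1 (chr2:24789928-24919614) was above 0 in all members. Its mean was 22.1 and 33.2 RPKM in WT and Het of the 96-well plates, 20.9 and 35.9 in WT and Het of the 384-well plates, 20.2 in iTg and 31.1 in Het-iTg. The 3 pools labelled with the deleted copy were the higher ones. Reads were summed over the whole gene, so the value does not read the deleted part alone and neither checks the labels nor measures GLP. Ehmt2, which encodes its partner G9a, was 32.3 and 32.2, 76.6 and 62.5, 65.8 and 53.9 RPKM in the same order. Of 16 H3K9 methylation genes, 6 were higher and 5 lower in the Het pool of both formats.

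Of 16 tested genes of peptide processing, 0 were higher and 10 lower in the Het pool of both formats, with a median of -0.34, beside 20.8% and 31.7% of all genes, and none was called. Scg2 was 35.5 and 14.2 RPKM in the 96-well and 19.7 and 7.33 RPKM in the 384-well plates, WT and Het, and 13.2 and 17.6 RPKM in iTg and Het-iTg. Chgb was 16.4 and 6.00, 12 and 7.18, 14 and 13 RPKM, and Cort was 10.8 and 2.02, 8.51 and 3.57, 8.21 and 2.26 RPKM. Scg2 and Chgb were thus lower in the Het pools of both formats, while Het-iTg was near or above iTg for Scg2 and Chgb and below it for Cort. The adjusted p of these 3 genes was at least 0.801. With only members with Lhx6 the median of the list was -0.40, and with all 6 pools in the fit it was -0.22.

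Some markers of excitatory cells were also lower in these Het pools. Slc17a7, a gene of the rule, was 4.04 and 0.664 RPKM in the 96-well and 1.22 and 0.396 RPKM in the 384-well plates, WT and Het, and 0.927 and 1.40 RPKM in iTg and Het-iTg. Nrgn, the postsynaptic protein neurogranin, was 14.2 and 2.62, 5.77 and 2.73, and 4.57 and 4.73 RPKM. Cux2, of the same list, went the other way in both formats, at 9.42 and 17.7, 24.6 and 29.6, and 31.3 and 22.9 RPKM. The summed level of 12 excitatory markers had medians of 78.3 and 46.99, 89.4 and 70.7, and 78.9 and 79.9 RPKM, and ranged from 5.67 to 262.8 RPKM over members. The sum includes Slc17a7 and was mostly Camk2a and Cux2 in the 384-well WT pool. There their means were 66.1 and 24.6 RPKM, beside 99.3 RPKM for the sum. Of 8 tested excitatory markers 2 were higher and 3 lower in the Het pool of both formats (median -0.55), beside 20.8% and 31.7% of all genes. The counts were 1 and 3 of 5 oligodendrocyte markers (-0.55), 1 and 1 of 3 astrocyte markers (-0.58) and 1 and 1 of 5 microglial markers (-0.11). The part of RNA from other cells in the peptide values was not tested.

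For the other lists the counts higher and lower in the Het pool of both formats were 2 and 2 of 12 subclass markers, 5 and 12 of 24 subtype genes, 0 and 3 of 7 Pvalb markers and 1 and 6 of 10 Vip and Lamp5 markers. They were 6 and 5 of 17 transcription factors, 1 and 3 of 6 GABA genes, 0 and 3 of 4 somatostatin receptors, 7 and 3 of 18 synapse genes, 3 and 7 of 16 channels and 1 and 7 of 15 activity-regulated genes. Of all tested genes 20.8% were higher and 31.7% lower, so more lower than higher genes are not particular to a list. Lhx6 was higher in Het in the 96-well plates (26.6 and 39.3 RPKM) and lower in the 384-well plates (51.6 and 46.1 RPKM). The log2 ratios of Het to WT for Elfn1, Grin3a and Reln were between -0.28 and 0.39 in the 2 formats.

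The genes with the largest ratios that agreed in both formats were named by rule, and many of them rested on single nuclei. Ptprt, a receptor tyrosine phosphatase, was 9.31 and 37.7 RPKM in the 96-well and 6.81 and 26.9 RPKM in the 384-well plates, WT and Het, and 26.6 and 14.8 RPKM in iTg and Het-iTg. It was above 0 in 15 of 23 and 13 of 17, and 14 of 20 and 12 of 18 nuclei, and the iTg value was close to that of the Het pool in the same plates. Its overlapping Ptprtos cannot be told apart from it. Akap5, a scaffold of protein kinase A, was 10.5 and 28.7, 5.46 and 16.8, 8.62 and 5.40 RPKM, and above 0 in most nuclei of every pool. Without the highest nucleus of each pool Akap5 was 9.17 and 20.3, and 4.91 and 13.5 RPKM.

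The other higher genes were Spsb4, Itga6, Ryr1, the interferon-induced Isg15, Myo5b, L3mbtl4 and Gsn. Ryr1 was above 0 in 3 of 17 Het nuclei of the 96-well plates, where 1 nucleus held 94.5% of the sum, and in 3 of 18 of the 384-well plates, where 1 held 90.3%. Isg15 was above 0 in 6 of 23 and 8 of 17, and 5 of 20 and 7 of 18 nuclei, with means of 1.21 and 5.91, and 1.15 and 3.41 RPKM.

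On the lower side, Apoe, a lipid carrier made mainly by astrocytes, was 5.72 and 1.32 RPKM in the 96-well and 5.26 and 1.35 RPKM in the 384-well plates, WT and Het, and 6.68 and 1.70 RPKM in iTg and Het-iTg. It was above 0 in 19 of 23 and 6 of 17, 12 of 20 and 7 of 18, and 15 of 20 and 3 of 11 nuclei. The rule chose Apoe for being lower in Het than in WT in both formats. The iTg and Het-iTg pools did not enter the rule, and there Apoe was lower in Het-iTg. Slc1a2, a glutamate transporter of astrocytes, was 8.60 and 1.60, 2.04 and 0.408, and 0.291 and 3.21 RPKM, the last pair in the other direction. The summed level of 7 astrocyte markers had medians of 8.31 and 1.97, 0.825 and 0.165, and 0.0852 and 4.45 RPKM in the same order, and ranged from 0 to 68.7 RPKM over members. The part of astrocyte RNA in these values was not tested.

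Ighm, Rmst, Chrna2, Th, Tnp2, Hhatl, Cartpt and Parm1 were also lower in both Het pools, most of them from few nuclei. In the WT pool of the 384-well plates 1 nucleus held 98.6% of the Ighm sum and 1 held 84.4% of that of Chrna2. Parm1 was above 0 in 14 of 23 and 6 of 17, and 9 of 20 and 6 of 18 nuclei, with means of 7.59 and 2.14, and 4.14 and 0.753 RPKM, and its Het-iTg mean was 15.6 RPKM. None of the 20 named genes had an adjusted p under 0.05.

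**Figure D5:**
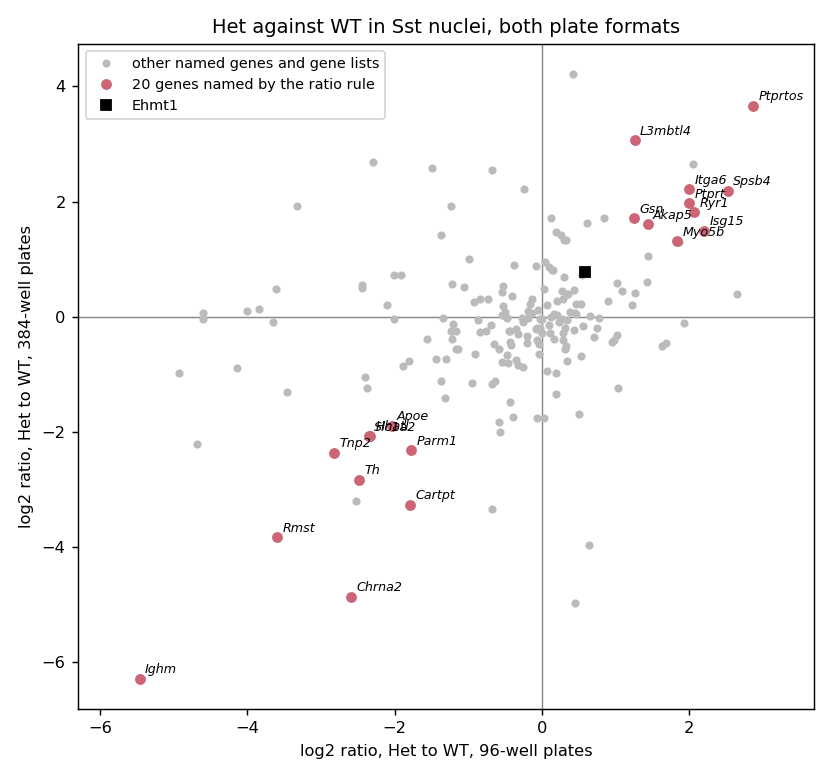
Log2 ratio of the Het to the WT pool mean in Sst nuclei, in 96-well plates (horizontal axis) and 384-well plates (vertical axis), for the 20 genes named by the ratio rule, Ehmt1 and the other named and listed genes. The 20 genes lie in the upper right and lower left corners because the rule chose them there, Ehmt1 lies in the upper right at 0.59 and 0.78, and the other genes spread over all 4 corners.

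Casp1, the inflammatory caspase that the study followed in neurons and microglia (chr9:5298517-5307265), was above 0 in 9 members (8.26%), beside 9.54% of excitatory nuclei. It was above 0 in 1 of 23 WT and 5 of 17 Het nuclei of the 96-well plates. In the 384-well plates it was above 0 in 1 of 20 WT, 0 of 18 Het, 0 of 20 iTg and 2 of 11 Het-iTg nuclei, and the counts of 0 allow shares of up to 16.7% and 15%, taken as 3 nuclei of the total, so no order of genotypes is shown there. Of the other 9 inflammation genes of the study, Pycard alone reached the share of nuclei needed for a test, at 4.57 and 4.69, 4.01 and 1.12, 1.19 and 2.51 RPKM, and Il1b was at 0 in all members.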

How the data were processed

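Per the labels and the study's methods, nuclei of 3 mice per genotype were isolated on an iodixanol gradient, sorted by DAPI into plates and prepared by RamDA-seq. The authors trimmed reads with Fastq-mcf, mapped them to mm10 with HISAT2 2.0.4, filtered nuclei by quality measures and counted reads with featureCounts (Subread 1.5.0) at default, unstranded settings. The submitters' processing notes name the same tools. The authors deposited RPKM values of 52636 genes, 1 table per plate format, with cell type labels per nucleus. These RPKM values were already normalised for gene length and depth. Values that were not whole reads within 0.001 reads made up 30.9% (96-well) and 26.6% (384-well), and how reads that match several genes were treated is not given in the sources used here, so close gene copies may share reads. How the authors treated doublets is not given in the sources used here, and no doublet caller was run. Gene positions are from GENCODE M21, on the same build.

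The members and gene lists were chosen with earlier results of these data known, so no list is independent evidence. Members were found by the rule on 6 genes, which were left out of all tests. The mean RPKM of each class was taken per pool, and log2(mean + 0.1) was tested with limma 3.58.1 (R 4.3.3) with a filter for genes detected in 10% or more of a class, with the pool as a block over 18 means, or, for Het against WT, with the plate format as a block over 4 means. The study tested single nuclei, which are not replicates here. Adjusted p-values are Benjamini-Hochberg over all tested genes, called under 0.05. The code was tested on simulated data, where the class comparison recovered known changes and the Het comparison made no calls at any size of change.

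Named genes were the 6 rule genes and Lhx6, the 10 highest and 10 lowest called genes by fold change in each class comparison (same direction in all 6 pools, over 1 RPKM in the higher class), the 10 highest and 10 lowest Het to WT ratios by the smaller of both formats (over 2 RPKM), called members of the lists or else the 3 highest, and Ehmt1 and Casp1. Predicted genes, pseudogenes and small RNAs were passed over. Members had 116791 to 997010 reads each. Shares have exact 95% binomial intervals, and the limit for a count of 0 is 3 nuclei of the total. Thinning took each neuron to 291080 (96-well) or 181913 (384-well) reads. Other tools were Python 3.11.15, numpy 2.4.6, pandas 2.3.3, scipy 1.17.1 and matplotlib 3.10.9. Some genes of the lists are counted in the totals but not reported here by name.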

Additional observations from a re-analysis of the deposited data

Results flagged for a closer look

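In the comparisons of classes, the 6 differences by pool of each of 42 named genes or groups were looked at for a pool far from the others. Chance alone would mark about 1 in 20, and 2 of the 42 were marked, which is near that rate. Against Pvalb nuclei, Adamts15, a secreted metalloprotease, differed by -1.65 on the log2 scale in the WT pool of the 96-well plates, and the nearest other pool was at -4.22. Against Vip or Lamp5 nuclei, Sall1, a zinc finger transcription factor, differed by -2.71 in the Het pool of the 384-well plates, and the nearest other pool was at -5.56. Both genes were lower in Sst nuclei in all 6 pools.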

How the results depend on the processing

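Shares of neurons stayed within their 95% intervals under every alternative: a minimum of 10 RPKM of Sst, Lhx6 also above 0, Gad1 at least 2 times Slc17a7, and thinned reads (8.94%, 7.36%, 7.12%, 6.43%, 8.03% and 3.83% in the order of the pools, with 18 to 45 neurons a pool left out). Without the nuclei of a title code the share was 8.51% to 9.52% in WT and 5.16% to 7.07% in Het of the 96-well plates. Averaging log2 values over nuclei gave 3347 calls against Vip or Lamp5 nuclei. Leaving out a pool gave 1236 to 1990 calls against Pvalb and 983 to 1371 against Vip or Lamp5 nuclei, and each such fit has fewer pools. Other pseudocounts (0.01 and 1), filters, weights and the variance trend kept both counts within 1.5 times. The runs without the nucleus with the highest Sst value and with Lhx6 above 0 were chosen after seeing the data. Of 60 named or listed calls, 40 against Pvalb and 33 against Vip or Lamp5 nuclei held under every alternative, and 18 and 25 were lost without at least 1 pool. Het against WT had 0 calls under every alternative run, but its ratios moved. Of the named and listed genes, 16.9% took the opposite direction when log2 values were averaged over nuclei, 15.3% with all 6 pools in the fit and 10.4% with Lhx6 above 0, and 56.3%, 42.1% and 16.9% moved by more than their standard error or changed direction. Of the 20 genes named by ratio, Ryr1 changed direction when log2 values were averaged and Ryr1, Gsn and Cartpt with all 6 pools. For this comparison leaving out a pool was not run, since no residual degrees of freedom remain. The class comparisons were paired by pool throughout. By replicate number, no paired analysis was possible because the numbers name nuclei and not mice. Depth limits what a 0 means, since the lowest Sst values stood on 1 read.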
